A study of Mus musculus with 17 samples.

Results

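Cdh1, Epcam, Esrp1, Cdh2, Vim, Zeb1, Zeb2, Snai1, Snai2 and Twist1 were followed by RNA sequencing in mouse prostate tissue and prostate tumours of the C57BL/6 strain. The 10 genes were taken by their symbols, and each was listed in every library, among the 13905 genes of the genotype libraries and the 39179 genes of an inducible model. The Ctnnb1 group (3 libraries, about 12 months of age) held prostate tumours in which 1 Ctnnb1 allele lacked exon 3. The combined group (3 libraries, about 6 to 8 months) held tumours that carried a further engineered change beside that allele. Wild-type prostate tissue (3 libraries, 12 months) was set against both groups. The ADT group (3 libraries) and the mock-treated group (2 libraries), both at about 15 months, held tumours of an inducible model of the combined genotype, so both carry the exon 3 deletion and the further change. A CreERT2 driver made those alleles, and the driver meant by the suffix "pc" on the other alleles is not spelled out in the labels. ADT is read here as androgen deprivation, whose means the labels do not spell out. The sample titles of that group hold "cast" and those of the mock group "ctrl". Age differed with genotype in the combined group, so age and genotype cannot be told apart there. Separate animals are not stated in the labels for the samples of a group, so p-values measure the spread between these samples, which may be technical.

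E-cadherin, encoded by Cdh1, holds neighbouring epithelial cells together, and its inner tail is anchored to the cytoskeleton through beta-catenin, the Ctnnb1 product, which also carries Wnt signals to the nucleus. In epithelial-mesenchymal transition, cells lose such contacts and take up a motile, mesenchymal form, with lower E-cadherin and higher N-cadherin and vimentin. The zinc finger factors Snail (Snai1), Slug (Snai2), Zeb1 and Zeb2 repress Cdh1 through E-boxes, and Twist1 is a further inducer of the programme. In normal prostate, Cdh1, Epcam and the splicing regulator Esrp1 mark the epithelium, whereas vimentin and the Zeb, Snail and Twist factors are made mainly in stromal cells.

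The values are gene read counts that the authors scaled per library and rounded (called scaled counts here), so the total of a library is not its sequencing depth. These totals lay between 33903149 and 35120175 in the Ctnnb1 group, between 32455483 and 34376245 in the combined group, and between 45675083 and 47248750 in wild type. Those of the ADT and mock libraries lay between 30591734 and 32791101. Each library held at least 6 Gb of paired reads of 90 nt, per the labels. Total Ctnnb1 transcript was 25993, 26125 and 26930 in the Ctnnb1 group, against 18785, 18850 and 18320 in wild type, and since it counts exons outside the deleted one it does not check the deletion. Luminal keratin Krt8 was at least 11054 in every library. Wild-type libraries also carried seminal vesicle markers (summed 446343 to 4389271, against 184 to 4401 in the Ctnnb1 group and 39386 to 206322 in the combined group), skeletal muscle markers (summed 9960 to 155920, against 54 to 10422 in the Ctnnb1 group and 97 to 1231 in the combined group) and smooth muscle markers (summed 162884 to 206259, against 2443 to 4928 in the Ctnnb1 group and 7823 to 23316 in the combined group). All 10 smooth muscle markers were lower in both tumour groups, and the part of these tissues in the differences from wild type below was not tested. Because whole tissue was measured, fewer cells of a type and less RNA per cell cannot be told apart.

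Genes were tested with limma's moderated test on log2(value + 1), and a gene is called changed at a Benjamini-Hochberg adjusted p under 0.05 over all genes of a comparison. Fold changes on this scale understate those of low genes, and log2 changes are given with their standard error (SE). Against wild type, 4 of the 10 genes were called in the Ctnnb1 group, Zeb2 higher and Epcam, Zeb1 and Snai2 lower. Over all genes of that comparison 58.5% were called, 28.9% higher and 29.6% lower, so the share among the 10 was not above the background. In the combined group 6 of the 10 were called, Cdh1, Vim, Zeb2 and Snai1 higher and Epcam and Esrp1 lower, beside 57.8% of all genes (28.3% higher and 29.5% lower). No member was called between ADT and mock (0 of 10), where 2 of 23289 genes, 0.00859%, were called over the whole table. At an unadjusted p under 0.05, 3 of the 10 passed, all lower, beside 3779 genes or 16.2% of those tested.

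**Figure D1:**
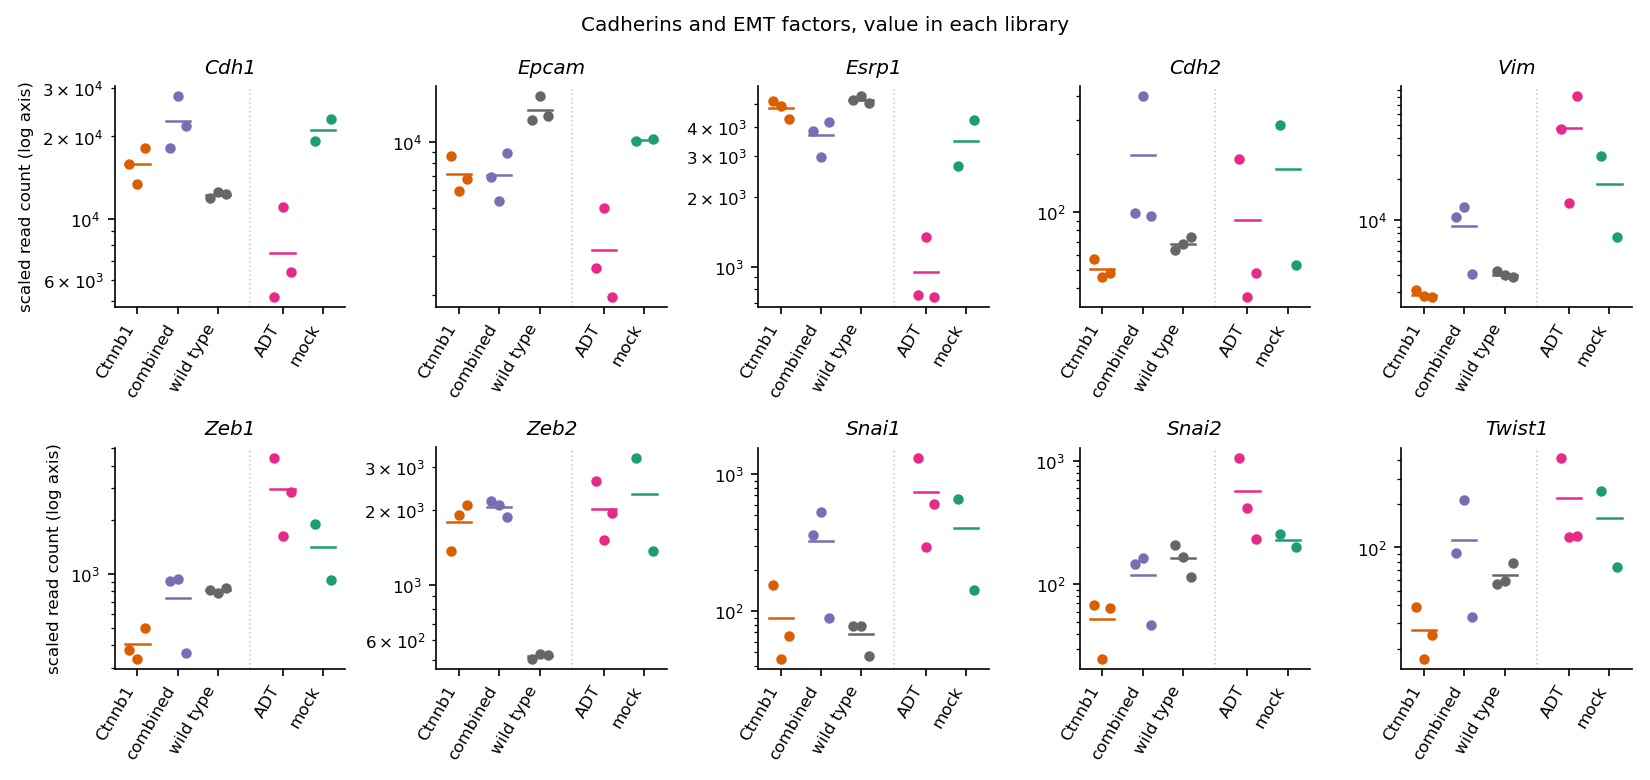
Scaled read count of each of the 10 genes (log axis, one panel per gene) in every library, as points, with a line at the group mean. The ADT and mock libraries, right of the dotted line, come from files scaled apart from the others. Zeb2 is at least 1371 in the Ctnnb1 and combined libraries and at most 527 in wild type, while Cdh1, Epcam and Esrp1 are lower in the 3 ADT libraries than in both mock libraries.

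The groups of the Ctnnb1 comparison did not overlap for 8 of the 10 genes (background 71.5%), 2 with all Ctnnb1 libraries above wild type (background 35.9%) and 6 with all below (background 35.6%). Between the combined group and wild type 6 of the 10 did not overlap (background 66.1%), 4 with all combined libraries above (background 32.1%) and 2 with all below (background 34.0%), and between ADT and mock 3 of 10 (background 33.2%, made up of 16.4% with all ADT libraries above and 16.8% with all below). Both tumour groups were compared with the same 3 wild-type libraries, so their changes are given side by side and not as 2 independent readings.

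The first genes described are those of the epithelial side. Cdh1 had scaled counts of 15874, 13426 and 18223 in the Ctnnb1 group, 18122, 28086 and 21916 in the combined group, and 11965, 12504 and 12311 in wild type. All 6 tumour libraries lay above all 3 wild-type ones. In the combined group Cdh1 rose 1.82-fold (log2 change 0.87, SE 0.17, limma adjusted p = 0.00245), and that call held under all 16 alternatives of the processing. Its log2 change in the Ctnnb1 group was 0.36 (SE 0.17, limma adjusted p = 0.0923) and was not called. It passed when totals were made equal (0.85, adjusted p = 0.00177) and when the combined libraries were left out of the fit (adjusted p = 0.0305).

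Epcam, which encodes an adhesion molecule of simple epithelia, went the other way. It had 8614, 5965 and 6751 in the Ctnnb1 group, 6933, 5355 and 8852 in the combined group, and 12570, 16204 and 13141 in wild type. The highest tumour value, 8852, was below the lowest wild-type value. Epcam fell 1.98-fold in the Ctnnb1 group (log2 change -0.98, SE 0.20, limma adjusted p = 0.00368) and 2.01-fold in the combined group (-1.01, SE 0.20, limma adjusted p = 0.00321). With totals made equal both changes shrank to -0.49 and neither passed (limma adjusted p = 0.0676 in the Ctnnb1 group and 0.0681 in the combined group). Both calls held under the other 15 alternatives, equal upper quartiles among them.

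Esrp1 encodes an RNA-binding protein that sets the epithelial splicing pattern of genes such as Cd44 and Fgfr2. It had 5135, 4924 and 4322 in the Ctnnb1 group, 3815, 2971 and 4203 in the combined group, and 5206, 5409 and 5067 in wild type. The combined libraries were all below wild type, whereas the Ctnnb1 libraries overlapped it. Esrp1 fell in the combined group by 0.53 on the log2 scale (SE 0.13, limma adjusted p = 0.00724). With totals made equal that change was -0.01 (adjusted p = 0.941), and with the 12 genotype libraries fitted together it did not pass (adjusted p = 0.0840). Its change in the Ctnnb1 group was -0.13 (SE 0.13, limma adjusted p = 0.402), and it turned positive with equal totals (0.36, adjusted p = 0.0370).

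Under ADT these 3 genes were the ones whose groups did not overlap. Cdh1 was 5179, 11026 and 6402 in ADT libraries against 19251 and 23143 in mock libraries. Epcam was 2661, 4989 and 1947 in ADT libraries against 10052 and 10302 in mock libraries. Esrp1 was 755, 1341 and 738 in ADT libraries against 2707 and 4257 in mock libraries. In each gene the second ADT library was the highest of its group and was still below both mock libraries.

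The log2 changes between ADT and mock were -1.56 for Cdh1 (SE 0.36, unadjusted p = 0.00817, limma adjusted p = 0.181), -1.78 for Epcam (SE 0.42, unadjusted p = 0.00941, adjusted p = 0.187) and -1.90 for Esrp1 (SE 0.37, unadjusted p = 0.00409, adjusted p = 0.148). None was called after adjustment. The direction was negative under all 14 alternatives, with Cdh1 between -1.87 and -1.33, Epcam between -2.16 and -1.48, and Esrp1 between -2.23 and -1.58. Over all genes tested, 16.8% had every ADT library below both mock libraries.

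Ratios to another epithelial gene do not depend on how a library is scaled. Krt8, the keratin of luminal cells, was used for this after the values had been seen. The ratio of Cdh1 to Krt8 was 0.256 to 0.597 in ADT libraries and 0.624 to 0.656 in mock libraries. That of Epcam to Krt8 was 0.0983 to 0.270 in ADT libraries and 0.292 to 0.326 in mock libraries. For Esrp1 the ratio was 0.0372 to 0.0726 in ADT libraries and 0.0878 to 0.121 in mock libraries. All 3 epithelial genes were thus lower in ADT libraries relative to Krt8 as well, with no overlap, while Krt8 was 18478 to 20239 in ADT libraries and 30841 to 35305 in mock libraries. The summed scaled counts of 5 luminal markers, Krt8 among them, were 61117 to 76591 in ADT libraries and 90698 to 112714 in mock libraries. Those of 6 basal epithelial markers were 9375 to 36659 in ADT libraries and 4757 to 30688 in mock libraries, which overlapped. A change in the share of epithelial cells, luminal or basal, was not tested.

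Among the genotypes, the ratio of Epcam to Krt8 was 0.213 to 0.328 in the Ctnnb1 group, 0.196 to 0.236 in the combined group and 0.971 to 1.22 in wild type. Cdh1 relative to Krt8 was 0.519 to 0.739 in the Ctnnb1 group, 0.485 to 1.06 in the combined group and 0.924 to 1.11 in wild type. Krt8 itself was 18164 to 31740 in the Ctnnb1 group, 26527 to 45221 in the combined group and 11054 to 13250 in wild type, and rose by 1.07 (limma adjusted p = 0.00754) in the Ctnnb1 group and 1.41 (limma adjusted p = 0.00200) in the combined group on the log2 scale. The ratios to Krt8 therefore carry a higher Krt8 in tumours beside the values of Epcam and Cdh1. Cdh1 relative to Epcam was 1.84 to 2.70 in the Ctnnb1 group and 2.48 to 5.24 in the combined group, and below 1 in wild type, at 0.772 to 0.952. In the inducible model that ratio was 1.95 to 3.29 in ADT libraries and 1.92 to 2.25 in mock libraries, which overlapped.

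**Figure D2:**
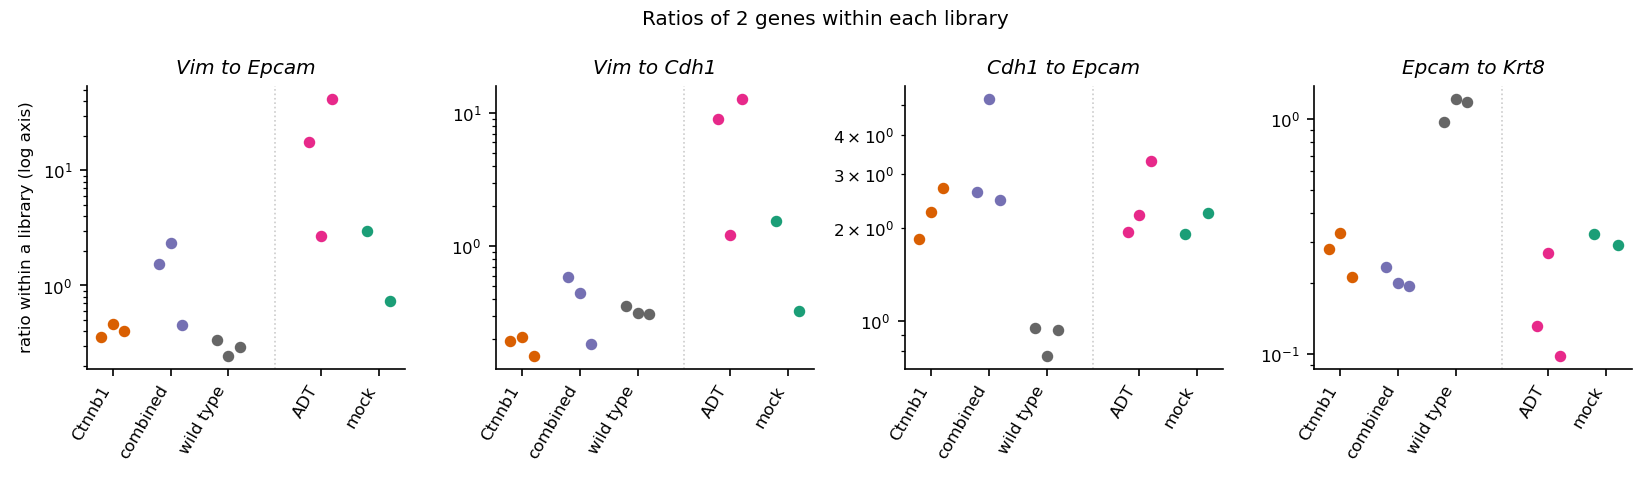
Ratios of 2 genes within each library (log axis), which no scaling of a library changes, for Vim to Epcam, Vim to Cdh1, Cdh1 to Epcam and Epcam to Krt8. Points are libraries, and the ADT and mock libraries stand right of the dotted line. Cdh1 to Epcam is below 1 in the 3 wild-type libraries and above 1 in all others, and Vim to Epcam is highest, at 41.9, in an ADT library.

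The E-box read as CACCTG on one strand and CAGGTG on the other is the core to which Snail and Zeb proteins bind, so the promoters of the genes were searched for it on both strands. RefSeq windows (build GRCm38.p6) ran from 250 bases before to 50 after a start. Those of 5 of the 10 genes were searched, Epcam, Vim, Zeb2, Snai1 and Twist1. No window was at hand for Cdh1, Esrp1 and Snai2, and Cdh2 and Zeb1 were left out by a filter on chromosome. Whether windows of Cdh2 and Zeb1 hold the E-box is therefore not reported. Epcam held 2 copies, whose first bases lie 187 and 19 bases before the start, at chr17:87635729-87636028 on the plus strand. Snai1 held 1 copy, 126 bases before the start, at chr2:167537945-167538244 on the plus strand. No copy was in the windows of Vim, Zeb2 and Twist1. The 5 genes had 8 windows, several of them of Zeb2, and 2 of the 8 held a copy. Of all 32851 windows 20.2% held at least 1 copy and 2.88% held 2 or more. A match is a description of the letters, not of binding. The windows that held the motif are printed 5′ to 3′, with the E-box in capitals, and a part of Snai1 in the Epcam values was not tested.
Epcam: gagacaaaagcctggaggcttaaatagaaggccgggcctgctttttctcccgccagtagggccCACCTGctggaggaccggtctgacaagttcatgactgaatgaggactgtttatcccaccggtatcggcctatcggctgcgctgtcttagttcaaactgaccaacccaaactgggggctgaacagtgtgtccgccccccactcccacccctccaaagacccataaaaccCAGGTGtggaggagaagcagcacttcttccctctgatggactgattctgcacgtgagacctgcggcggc
Snai1: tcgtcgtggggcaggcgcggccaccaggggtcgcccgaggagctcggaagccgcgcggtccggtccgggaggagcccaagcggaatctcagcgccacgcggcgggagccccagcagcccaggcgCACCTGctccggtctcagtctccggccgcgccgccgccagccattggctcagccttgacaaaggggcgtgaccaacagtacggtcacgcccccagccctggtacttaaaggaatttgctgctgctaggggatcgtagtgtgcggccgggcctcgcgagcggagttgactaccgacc

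The mesenchymal side was made up of Cdh2 and Vim. Cdh2 encodes N-cadherin, the cadherin of neural and mesenchymal cells, and was the lowest of the 10 genes per kilobase in all 5 groups. Its scaled counts were 57, 46 and 48 in the Ctnnb1 group, 99, 399 and 95 in the combined group, and 63, 68 and 74 in wild type. All Ctnnb1 libraries were below wild type and all combined libraries above it, and combined replicate 11 alone was at 399. Neither Cdh2 change was called, with a log2 change of -0.44 in the Ctnnb1 group (SE 0.51, limma adjusted p = 0.480) and 1.18 in the combined group (SE 0.51, limma adjusted p = 0.0763). The combined change passed without replicate 10 (adjusted p = 0.0499), without replicate 12 (adjusted p = 0.0354) and with equal totals (adjusted p = 0.0150). With equal totals the Ctnnb1 change turned positive, at 0.046. The 6 nerve and Schwann cell markers, cells that also make N-cadherin, summed to 259 to 339 in the Ctnnb1 group, 396 to 1331 in the combined group and 1736 to 2042 in wild type, and their part in the Cdh2 values was not tested.

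Cdh2 in the inducible model was 188, 36 and 48 in ADT libraries and 282 and 53 in mock libraries, which overlapped (log2 change -0.82, SE 1.07, limma adjusted p = 0.752). Replicate 1 was the high one in each group. Without mock replicate 1 the change turned to 0.37. The ratio of Cdh2 to Cdh1 stayed low in every library, at most 0.0363, in ADT replicate 1.

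Vim encodes vimentin, the intermediate filament of mesenchymal cells. It had 3055, 2767 and 2724 in the Ctnnb1 group, 10586, 12533 and 4002 in the combined group, and 4230, 3955 and 3808 in wild type. The Ctnnb1 libraries all lay below wild type, whereas combined replicates 10 and 11 lay far above it and replicate 12 within its range. Vim rose 2.03-fold in the combined group (log2 change 1.02, SE 0.36, limma adjusted p = 0.0393). That call was lost in 8 of 16 alternatives, among them leaving out any 1 wild-type library or combined replicate 10 or 11, where the adjusted p went up to 0.118. For the Ctnnb1 group the log2 change of -0.49 was not called (SE 0.36, limma adjusted p = 0.271). It passed when only the 6 libraries of the comparison were fitted (adjusted p = 0.00120), and with equal totals it was 0.0021.

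Vim was the most variable of the 10 genes within the ADT group, where its highest value was 6.08 times its lowest. Its scaled counts were 46680, 13411 and 81589 in ADT libraries and 29632 and 7588 in mock libraries, so the groups overlapped and the third ADT library was the highest of all. The log2 change was 1.31 (SE 0.99, limma adjusted p = 0.563). Relative to Epcam, Vim stood at 17.5, 2.69 and 41.9 in ADT libraries and 2.95 and 0.737 in mock libraries. The ratio was 0.355 to 0.464 in the Ctnnb1 group, 0.452 to 2.34 in the combined group and 0.244 to 0.337 in wild type. All Ctnnb1 and combined libraries thus had more Vim per Epcam than any wild-type one, while Epcam itself was lower in both groups. The ratio of Vim to Cdh1 ran the other way in the Ctnnb1 group, at 0.149 to 0.206, lay on both sides of wild type in the combined group, at 0.183 to 0.584, and was 0.309 to 0.354 in wild type. In the inducible model Vim to Cdh1 was 1.22 to 12.7 in ADT libraries and 0.328 to 1.54 in mock libraries, which overlapped.

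Fibroblast and macrophage markers moved with Vim in part of the libraries. The summed scaled counts of 10 fibroblast markers were 283245, 577085 and 38967 in the combined group and 32688 to 38913 in wild type, in the same order of combined replicates as Vim. In that group 7 of the 10 fibroblast markers and 9 of the 10 macrophage markers were called higher, and none was at 0 in any library. The count of 7 fibroblast markers was 2 or 3 without any 1 wild-type library or combined replicate 10 or 11, and 9 without combined replicate 12. In the Ctnnb1 group, where Vim was low, the fibroblast sum was 19001 to 29134 and 1 of the 10 was called, lower. The part of these markers in the Vim result was not tested. In the ADT group the highest Vim value, 81589, came with the lowest fibroblast sum, 57700, and the lowest macrophage sum, 11293, while ADT replicate 1, with 46680 of Vim, had a fibroblast sum of 364601. The mock libraries had fibroblast sums of 489774 and 96155. Skeletal muscle markers summed to 51841 in ADT replicate 3, the library with the highest Vim, against 2028 and 133 in the other ADT libraries and 10156 and 33425 in mock libraries, and their part in the Vim values was not tested.

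**Figure D3:**
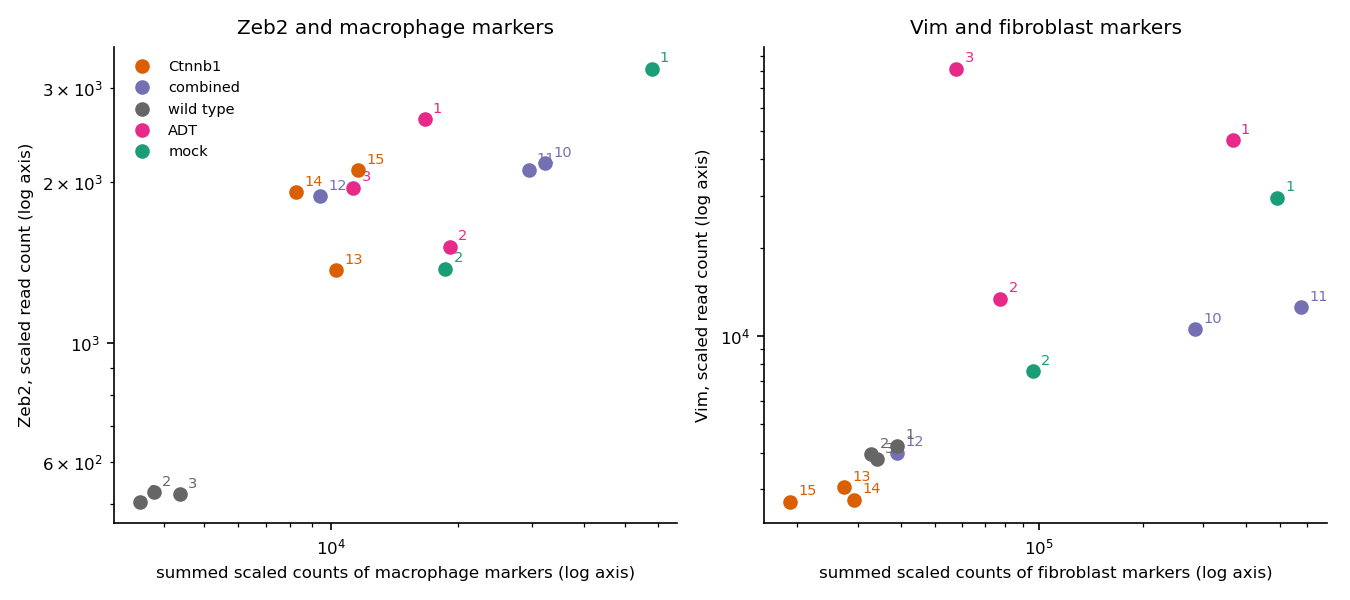
Zeb2 against the summed scaled counts of 10 macrophage markers (left) and Vim against those of 10 fibroblast markers (right), on log axes, one point per library with its replicate number. ADT and mock values were scaled apart from the others. Wild-type libraries have the lowest Zeb2 and the lowest macrophage sums, and ADT replicate 3 has the highest Vim, 81589, at a fibroblast sum of 57700.

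Of the 5 transcription factors among the 10 genes, Zeb2 was the one called in both genotype comparisons. It had 1371, 1916 and 2108 in the Ctnnb1 group, 2171, 2111 and 1886 in the combined group, and 505, 527 and 521 in wild type. All 6 tumour libraries lay above all 3 wild-type libraries, by more than the range within any of these 3 groups. Zeb2 rose 3.41-fold in the Ctnnb1 group (log2 change 1.77, SE 0.15, limma adjusted p = 5.05e-05) and 3.96-fold in the combined group (1.99, SE 0.15, limma adjusted p = 2.92e-05). Both calls held in all 16 alternatives, with changes of 1.64 to 2.26 in the Ctnnb1 group and 1.94 to 2.50 in the combined group. Over all genes, 35.9% had every Ctnnb1 library above wild type and 32.1% every combined library.

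Macrophage markers were higher in the same libraries. Their sum was 10299, 8277 and 11598 in the Ctnnb1 group, 32329, 29512 and 9419 in the combined group, and 3512 to 4371 in wild type. Of the 10 markers 8 were called higher in the Ctnnb1 group and none lower, and all 10 were detected in every library. Zeb2 is also made by macrophages, and the part of such cells in its change was not tested. Combined replicate 12 had a macrophage sum of 9419 and a Zeb2 value of 1886, against 2171 in replicate 10 with a sum of 32329. Zeb2 overlaps an antisense transcript, Zeb2os, and whether reads were counted by strand is not given in the sources used here. Under ADT Zeb2 was 2622, 1516 and 1955, against 3263 and 1378 in mock libraries, which overlapped (log2 change -0.10, SE 0.45, limma adjusted p = 0.930). Macrophage sums there were 11293 to 19142 in ADT libraries and 18681 to 57883 in mock libraries.

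Zeb1, the related factor, did not follow Zeb2. It had 375, 336 and 499 in the Ctnnb1 group, 909, 939 and 361 in the combined group, and 811, 777 and 837 in wild type. The Ctnnb1 libraries were all below wild type, and combined replicates 10 and 11 lay above it with replicate 12 below. Zeb1 fell 2.03-fold in the Ctnnb1 group (log2 change -1.02, SE 0.34, limma adjusted p = 0.0319). The call was lost in 6 of 16 alternatives: equal totals (adjusted p = 0.189), any 1 wild-type library left out, and Ctnnb1 replicate 13 or 14 left out (adjusted p up to 0.0905). In the combined group the change was -0.26 (SE 0.34, limma adjusted p = 0.539), and it turned positive without replicate 12 (0.19) and with equal totals (0.26).

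Between ADT and mock Zeb1 was 4437, 1613 and 2867 against 1891 and 920, with ADT replicate 2 inside the mock range (log2 change 1.05, SE 0.54, limma adjusted p = 0.424). The ratio of Zeb1 to Cdh1 was 0.0236 to 0.0274 in the Ctnnb1 group, 0.0165 to 0.0502 in the combined group and 0.0621 to 0.0680 in wild type, so every tumour library held less Zeb1 per Cdh1 than wild type. In the inducible model it was 0.146 to 0.857 in ADT libraries and 0.0398 to 0.0982 in mock libraries, which did not overlap. The ratio also carries Cdh1, which was higher in every tumour library than in wild type and lower in every ADT library than in mock libraries. Snai2 to Cdh1 did not overlap there either, at 0.0362 to 0.205 in ADT libraries and 0.00873 to 0.0133 in mock libraries.

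Snai1, the gene of Snail, had 156, 45 and 66 in the Ctnnb1 group, 360, 529 and 90 in the combined group, and 78, 78 and 47 in wild type. The combined libraries were all above wild type, replicate 12 by little, and the Ctnnb1 libraries lay around it. Snai1 rose 3.87-fold in the combined group (log2 change 1.95, SE 0.69, limma adjusted p = 0.0378). Leaving out any 1 wild-type library, or combined replicate 10 or 11, ended the call (adjusted p up to 0.118). The change in the Ctnnb1 group was 0.23 (SE 0.69, limma adjusted p = 0.788), with a sign that turned without wild-type replicate 3 (-0.0090) or Ctnnb1 replicate 13 (-0.27). Under ADT it was 1324, 292 and 609 against 665 and 143 in mock libraries (log2 change 1.00, SE 0.93, limma adjusted p = 0.644).

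Snai2, the gene of Slug, is made in basal epithelium and stroma. It had 68, 25 and 64 in the Ctnnb1 group, 147, 162 and 47 in the combined group, and 208, 166 and 115 in wild type. The Ctnnb1 libraries all lay below wild type and the combined ones overlapped it. Snai2 fell 3.26-fold in the Ctnnb1 group (log2 change -1.71, SE 0.56, limma adjusted p = 0.0289). It did not pass with equal totals (-1.22, adjusted p = 0.0792), nor without wild-type replicate 1 or 2 or Ctnnb1 replicate 14 (adjusted p up to 0.0912). Of 6 basal epithelial markers limma called none in the Ctnnb1 group (2, Krt15 and Trp63, had an unadjusted p under 0.05, both lower), where their sum was 4505 to 11418, against 8549 to 14459 in wild type, and their part in the Snai2 change was not tested. The Snai2 change of -0.60 in the combined group was not called (SE 0.56, limma adjusted p = 0.380). Under ADT Snai2 was 1063, 414 and 232 against 256 and 202 in mock libraries, with the third ADT library inside the mock range (log2 change 1.04, SE 0.69, limma adjusted p = 0.503).

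Twist1, a basic helix-loop-helix factor of mesoderm and mesenchyme, was called in no comparison. It had 39, 17 and 25 in the Ctnnb1 group, 91, 212 and 33 in the combined group, and 56, 59 and 78 in wild type. The Ctnnb1 libraries were all below wild type, and the combined ones lay on both sides of it. The log2 change was -1.28 in the Ctnnb1 group (SE 0.62, limma adjusted p = 0.108) and 0.43 in the combined group (SE 0.62, limma adjusted p = 0.571). The first passed when only the 6 libraries compared were fitted (adjusted p = 0.0201), and the second turned to -0.21 without combined replicate 11. Under ADT Twist1 was 419, 119 and 120 against 247 and 73 in mock libraries (log2 change 0.43, SE 0.84, limma adjusted p = 0.839).

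Combined replicate 12 had the lowest value of its group for each of Cdh2, Vim, Zeb1, Zeb2, Snai1, Snai2 and Twist1, and also its lowest fibroblast and macrophage sums, 38967 and 9419. Its Epcam, 8852, and Esrp1, 4203, were the highest of the group. Without it, 7 of the 10 genes were called in the combined group, Cdh2 being the addition. The spread between combined replicates was widest for Twist1, whose highest value was 6.42 times its lowest, and Snai1, at 5.88 times. It was narrowest for Zeb2, at 1.15 times. Within wild type no member exceeded 1.81 times, the value of Snai2.

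**Figure D4:**
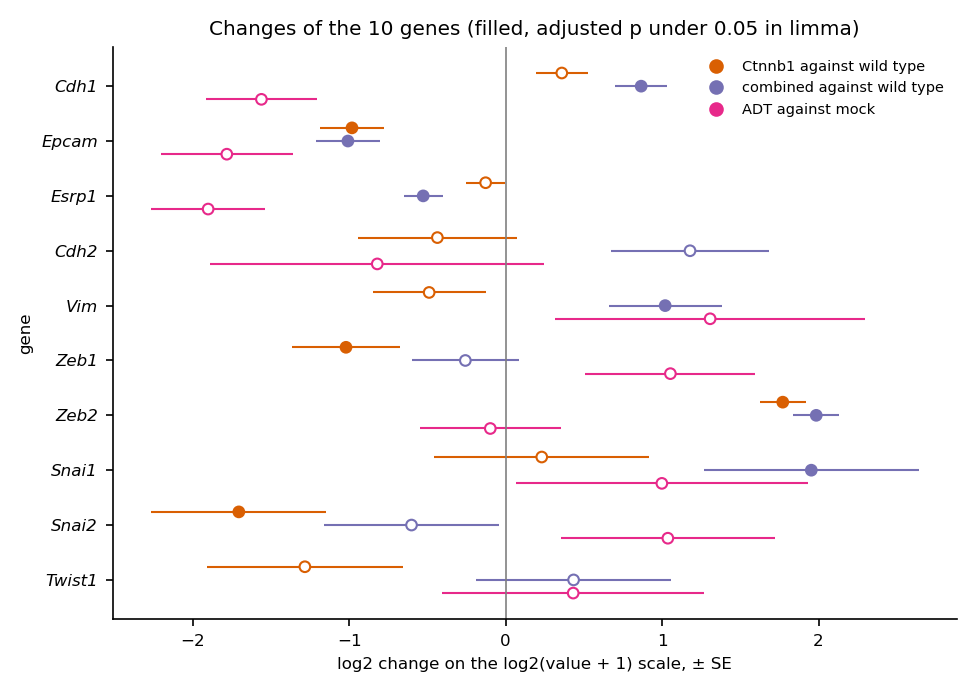
Log2 change of the 10 genes on the log2(value + 1) scale, with bars of 1 SE, for the Ctnnb1 and combined groups against wild type and for ADT against mock. Filled points passed an adjusted p under 0.05 in limma. Zeb2 was higher and Epcam lower in both tumour groups, and no point of the ADT comparison is filled, with Cdh1, Epcam and Esrp1 at -1.56, -1.78 and -1.90.

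Levels of different genes can be compared per kilobase of annotated exon (GENCODE M21 lengths), as scaled counts per kb. The order of the Ctnnb1 group was led by Cdh1 at 3463 and Epcam at 3239, which overlapped, then Esrp1 at 760.3 and Vim at 600.6. The combined group had Cdh1 at 4965, Epcam at 3210 and Vim at 1906, with overlap between neighbours, and Esrp1 at 581.0. Wild type had Epcam first at 6365, then Cdh1 at 2680, then Vim at 842.9 and Esrp1 at 829.1, which overlapped.

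In the ADT group Vim came first at 9957 scaled counts per kb, above Cdh1 at 1648 and Epcam at 1457. The mock group had Epcam at 4636 and Cdh1 at 4634, and Vim at 3924 overlapped Cdh1. Esrp1, the fourth gene of mock tumours at 552.3 per kb, was at 149.8 per kb in ADT libraries, below the means of Snai1 at 457.5, Zeb1 at 289.5 and Snai2 at 281.9. Of the 5 transcription factors, Zeb2 was the lowest per kb in wild type, at 25.96, and the highest in the Ctnnb1 group, at 90.18, where it overlapped Snai1. These ranks depend on the length used. All annotated exons together span 19.94 kb for Zeb2 and 1.62 kb for Snai1, and a shorter length would raise the level of Zeb2.

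The other genes of the adhesion and transition programme were described as lists, each counted whole beside the background shares given above. Those shares do not apply to counts with equal totals. In that setting 7797 of all 13905 genes were called higher and 2086 lower in the Ctnnb1 comparison. In the combined comparison 7970 were called higher and 1758 lower. Among 7 other cadherins listed in the genotype libraries, 1 rose and 3 fell in the Ctnnb1 group, and 3 rose and 2 fell in the combined group (2 and 3 in the Ctnnb1 group with equal totals, and 3 and 2 again in the combined group). Cdh17, a cadherin of intestinal epithelium and liver, had 2179, 2345 and 1136 in the Ctnnb1 group, 1766, 1848 and 3542 in the combined group, and 73, 7 and 22 in wild type. Its log2 change was 6.23 for the Ctnnb1 group (limma adjusted p = 0.000216) and 6.57 for the combined group (limma adjusted p = 0.000161). Cdh16, the kidney cadherin, and Cdh4, R-cadherin, fell in both. Cdh5, the cadherin of endothelium, rose in the combined group (log2 change 1.60, limma adjusted p = 0.00206), where 7 of 10 endothelial markers, itself among them, were higher.

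Catenins link cadherins to actin. Of 8 catenin and linker genes 6 rose and 2 fell in the Ctnnb1 group (median log2 change 0.50, against 0.0028 over all genes), and in the combined group 3 rose and 1 fell (median 0.31). With equal totals these counts were 6 and 1, and 7 and 1. Ctnnd2, delta-catenin, rose by 3.45 on the log2 scale in the Ctnnb1 group and 2.41 in the combined group. Ctnna2, the neuronal alpha-catenin, fell by 3.91 in the Ctnnb1 group and fell by 2.68 in the combined group. Ctnnd1, p120-catenin, which keeps E-cadherin at the membrane, rose by 0.68 in the Ctnnb1 group and 0.46 in the combined group.

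Tight junction and desmosome genes rose more often than they fell. Of 22, 12 rose and 1 fell in the Ctnnb1 group, and 9 rose and 2 fell in the combined group, where only 4 rose without wild-type replicate 3. The desmosomal cadherin Dsc2 had 4526, 3242 and 4118 in the Ctnnb1 group, 3255, 3844 and 4416 in the combined group, and 1111, 1411 and 1230 in wild type. Cldn4, a claudin of tight junctions, had 24822, 20145 and 22408 in the Ctnnb1 group, 13443, 14287 and 20863 in the combined group, and 6737 to 8605 in wild type. Dsc2 rose by 1.66 (Ctnnb1 group) and 1.61 (combined group) on the log2 scale, and Cldn4 by 1.498 (Ctnnb1 group) and 1.00 (combined group). These directions hold relative to the authors' scaling. Making totals equal shifted the median log2 change over all genes by 0.49 in the Ctnnb1 comparison and 0.515 in the combined one. After that, 21 junction genes rose in the Ctnnb1 group and 18 in the combined group, and none fell in either. Over all 13905 genes, 7797 and 7970 were called higher in that setting, so a rise was common to many genes.

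Of 13 epithelial transcription and splicing factors, 5 rose and 2 fell in the Ctnnb1 group, and 2 rose and 5 fell in the combined group, counts that became 7 and 1, and 6 and 2, with equal totals. Ehf, an Ets factor of glandular epithelium, was 13143, 11210 and 15235 in the Ctnnb1 group, 11001, 12372 and 15566 in the combined group, and 36992, 37745 and 32503 in wild type. Ehf fell by 1.45 in the Ctnnb1 group and fell by 1.47 in the combined group (log2). Its relative Elf3 rose by 1.24 in the Ctnnb1 group and 1.97 in the combined group. Among 11 other epithelial surface and trafficking genes, 4 rose and 3 fell in the Ctnnb1 group and 2 rose and 5 fell in the combined group (with equal totals, 4 rose and none fell for the Ctnnb1 group, and 4 rose and 3 fell for the combined group).

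Other transcription factors named in epithelial-mesenchymal transition gave 5 higher and 3 lower of 13 in the Ctnnb1 group, and 4 higher and 3 lower in the combined group. With equal totals, 7 were higher and 1 lower for the Ctnnb1 group, and 6 higher and 2 lower for the combined group. Tcf4, the E2-2 protein that binds E-boxes, had 7275, 9806 and 9077 in the Ctnnb1 group, 4550, 4370 and 6595 in the combined group, and 1098 to 1248 in wild type. It rose by 2.86 in the Ctnnb1 group (limma adjusted p = 1.41e-05) and 2.09 in the combined group (limma adjusted p = 4.14e-05) on the log2 scale. Sox9 rose by 1.08 in the Ctnnb1 group and 1.00 in the combined group. Twist2 fell by 3.39 in the Ctnnb1 group and fell by 1.95 in the combined group, with 7 to 18 in the Ctnnb1 group, 20 to 75 in the combined group and 132 to 160 in wild type.

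Of 17 genes listed as mesenchymal effectors, 3 rose and 4 fell in the Ctnnb1 group (median log2 change 0.40), and 12 rose and 1 fell in the combined group (median 2.44). The difference between the groups was not tested. The Ctnnb1 counts were 5 and 1 with equal totals, and 1 fell without wild-type replicate 2 or 3 or Ctnnb1 replicate 14. The combined counts were 13 and none with equal totals, and 14 rose without combined replicate 12. The list also holds Sdc1 and Itgb6, which are genes of epithelium as well. Sdc1 had means of 4144 in the Ctnnb1 group, 6465 in the combined group and 1742 in wild type. Itgb6 had means of 425 in the Ctnnb1 group, 1133 in the combined group and 119 in wild type. Cd44, the hyaluronan receptor, rose in both, with 12097, 9225 and 12687 in the Ctnnb1 group, 12086, 12720 and 17782 in the combined group, and 759 to 1200 in wild type. Its log2 change was 3.62 in the Ctnnb1 group and 3.94 in the combined group. Mmp14, a membrane-bound matrix protease, rose by 2.94 in the combined group. Cald1, the actin-binding caldesmon, fell in both groups, but did not pass in the combined group with equal totals (adjusted p = 0.195), beside the 10 smooth muscle markers that were lower. The fibroblast sums given with Vim belong to the same combined libraries, and their part in the 12 genes was not tested.

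**Figure D5:**
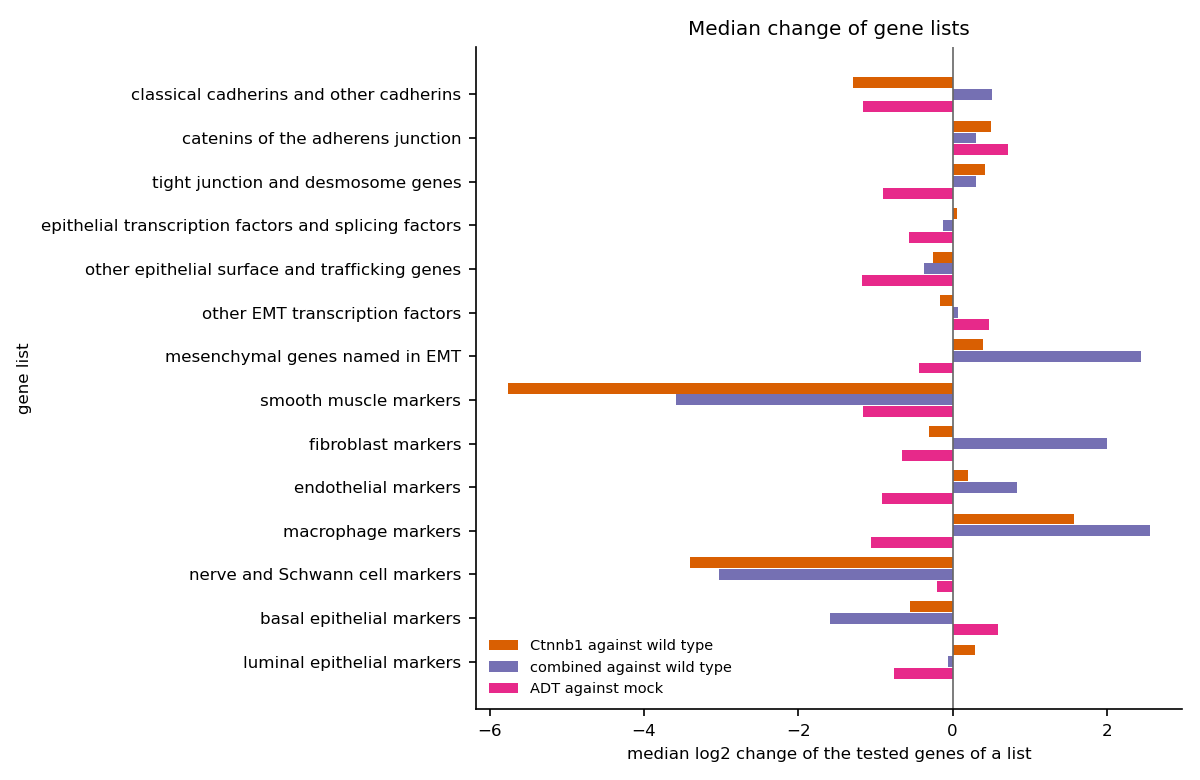
Median log2 change of the tested genes of each list drawn (skeletal muscle, seminal vesicle and T cell markers are not drawn), as bars from 0, in the Ctnnb1 and combined groups against wild type and in ADT against mock. Genes listed as mesenchymal have medians of 2.44 in the combined group and 0.40 in the Ctnnb1 group. Smooth muscle markers have -5.77 in the Ctnnb1 group and -3.59 in the combined group, and junction genes are at -0.91 under ADT. No gene on these lists was called under ADT.

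No list held a gene called between ADT and mock by limma, and the values are given as description. Beside 16.2% of all genes, 6 of 22 junction genes and 6 of 11 surface and trafficking genes had an unadjusted p under 0.05. So did 3 of 13 epithelial factors and 2 of 17 mesenchymal effector genes. Of 22 tight junction and desmosome genes, 9 had every ADT library below both mock libraries (background 16.8%). None had every ADT library above (background 16.4%), and the median log2 change was -0.91, against -0.02 over all genes. Cldn3 was 652, 690 and 424 in ADT libraries against 3629 and 3410 in mock libraries, a log2 change of -2.61 (limma adjusted p = 0.0804). Ocln, occludin of the tight junction, was 475, 613 and 354 against 1344 and 2280. Cldn7, which binds the Epcam protein, was 705, 1160 and 520 in ADT libraries against 2488 and 3648 in mock libraries. Of 11 other cadherins, 4 had every ADT library below both mock libraries and 0 had every one above (median log2 change -1.16). An unadjusted p under 0.05 was reached by 3 of the 11. Cdh17 was 81, 173 and 45 in ADT libraries against 323 and 318 in mock libraries.

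Among the other epithelial genes 6 of 11 surface and trafficking genes and 5 of 13 factors had all ADT libraries below mock (background 16.8%). Of the factors, 1 had all above (background 16.4%). Prss8, a membrane protease of epithelia, was 267, 493 and 296 in ADT libraries against 1548 and 1865 in mock libraries. Elf5, an Ets factor of glandular epithelium, was 896, 984 and 767 against 3048 and 2553 in mock libraries (log2 change -1.67, limma adjusted p = 0.0866). Rbm47, an RNA-binding protein of epithelia, was 547, 726 and 308 against 2193 and 2369 in mock libraries. Of 8 catenin and linker genes 3 had every ADT library above mock, beside 16.4% of all genes, and the other 5 did not. The median log2 change was 0.71, 1 of the 8 had an unadjusted p under 0.05 and limma called none. Ctnnb1 itself was 64204, 76649 and 74725 in ADT libraries against 30608 and 40205 in mock libraries (log2 change 1.03, SE 0.18, limma adjusted p = 0.133).

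Of 14 other transition factors, 6 had every ADT library above mock (background 16.4%) and 2 had every one below (background 16.8%), and 7 had an unadjusted p under 0.05. Tcf4 was 17131, 18080 and 19234 in ADT libraries against 5031 and 7792 in mock libraries, a log2 change of 1.53 (SE 0.22, limma adjusted p = 0.112). Prrx2, a homeobox gene of mesenchyme, was 4027, 910 and 1283 in ADT libraries against 309 and 103 in mock libraries. Among 17 mesenchymal effector genes 1 had every ADT library above mock and 1 every one below (median -0.44). That higher gene was S100a4, a calcium-binding protein of motile cells, at 8988, 9952 and 5182 against 866 and 396 in mock libraries (log2 change 3.72, SE 0.46, limma adjusted p = 0.0999). The lower one was Mmp2, a secreted matrix protease, at -1.58 (limma adjusted p = 0.262). Fibroblast, macrophage and endothelial lists had medians of -0.65, -1.06 and -0.92 under ADT, and none of their genes had every ADT library above mock. Of 10 smooth muscle markers, 2 had every ADT library above mock and 3 every one below (median -1.17).

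The genes whose pattern over the libraries was nearest to Cdh1 and to Vim were found by the root mean square difference of log2(value + 1), each gene centred on its own mean, among genes with a mean of at least 100. Over the 9 genotype libraries and 11568 genes, those nearest to Cdh1 were the zinc transporter gene Slc39a1 (0.105), Ska2 (0.109) and Golga7 (0.113). Slc39a1 had 3674, 3161 and 3601 in the Ctnnb1 group, 4677, 6123 and 4663 in the combined group, and 2824 to 2971 in wild type. Nearest to Vim were Rgl1 (0.130), Lsp1, a leukocyte gene (0.131), and Lrp1 (0.164). Lsp1 had 450, 478 and 404 in the Ctnnb1 group, 1804, 2097 and 607 in the combined group, and 503 to 580 in wild type, with replicate 12 again the low one of the combined group.

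Over the 5 libraries of the inducible model and 12528 genes, those nearest to Cdh1 were the gap junction gene Gjb1 (0.0678), the claudin gene Cldn4 (0.0776) and Sema4a (0.115). Gjb1 was 53, 106 and 68 in ADT libraries against 194 and 218 in mock libraries. Cldn4 was 3661, 8508 and 4900 in ADT libraries against 13120 and 18041 in mock libraries. Nearest to Vim were Slc43a3 (0.295), Kcnmb1 (0.353) and the syndecan gene Sdc2 (0.356), which were less close to it than the genes near Cdh1 were to Cdh1. With so few libraries, many genes can lie this near, and the distances are descriptions without a test.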

How the data were processed

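RNA sequencing measured 17 frozen samples, of which 14 are reported. A further genotype group (n = 3) is not reported here, nor is the effect of the further engineered change by itself. That group enters only an alternative fit of 12 libraries. Per the labels' protocols, samples had an RNA integrity number above 7.3 and were run by BGI on a HiSeq 2000. Per the submitters' processing notes, the build was GRCm38.p3 and the tools named are DESeq2 1.14.1, R 3.2.3, HTSeq 0.6.0, TopHat2 2.1.0, Bowtie2 2.2.6.0 and FastQC 0.11.4. The role of each tool is not given in the sources used here. The deposited values are scores, judged from the values to be gene counts that the authors scaled per library and rounded. Sequenced read totals and size factors are not given in the sources used here, so the exact depth of a library and counting intervals cannot be given. Genes of low value are missing from the genotype files, where the lowest mean was 15.6.

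Features without an Entrez number (631), sharing 1 of 118 such numbers, or repeating another (389, and 3668 in the inducible model) were left out. The 9 genotype libraries were fitted together and the 5 libraries of the inducible model alone, by group, with limma 3.58.1 in R 4.3.3 (moderated test with a trend in the prior variance, Benjamini-Hochberg adjustment) on log2(value + 1). Genes with a value of at least 1 in 3 of 9, or 2 of 5, libraries were tested. Files scaled apart were not compared. The fit was tested on simulated data. Plots used matplotlib 3.10.9, and tables pandas 2.3.3, under Python 3.11.15.

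The 10 genes and the gene lists were chosen with earlier results of these data known. All 10 are named in each comparison. From each list up to 4 genes with the smallest p in a comparison are named, with the 3 genes nearest to Cdh1 and to Vim, and Ctnnb1. Some genes that this rule names are not reported here. Krt8 ratios and statements on combined replicate 12 were chosen after values were seen. Alternatives were other pseudocounts, filters, scalings and variance priors, other sets of libraries, each library left out, and a block.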

Additional observations from a re-analysis of the deposited data

Results flagged for a closer look

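Cdh2 was the only one of the 10 genes for which every Ctnnb1 library lay below all wild-type libraries (log2 change -0.44) while every combined library lay above them (log2 change 1.18). The comparisons share the wild-type libraries, neither change was called, and the difference between them was not tested. Values were low, 46 to 57 scaled counts in the Ctnnb1 group, 95 to 399 in the combined group and 63 to 74 in wild type. No group had enough samples for a check of single outlying libraries.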

How the results depend on the processing

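Over 16 alternatives the genes called stayed within 1.5 times of 8131 in the Ctnnb1 comparison (6745 to 9883) and of 8043 in the combined one (6706 to 9728), but with equal totals 78.9% and 81.9% of the calls were higher, against 49.4% and 48.9%. Of 160 member values per genotype comparison, 140 (Ctnnb1) and 138 (combined) kept direction and side of the threshold. Members called in the Ctnnb1 comparison were 7 when only the 6 libraries compared were fitted, 3 with equal totals (3 higher, none lower) and 2 to 4 with a library left out. In the combined comparison they were 4 with 12 libraries, 5 with equal totals (5 higher, none lower) and 4 to 7 with a library left out. With equal upper quartiles the members called were 1 higher and 3 lower in the Ctnnb1 comparison. They were 4 higher and 2 lower in the combined one, the same counts as in the main fits. Of all calls in that setting, 49.2% (Ctnnb1) and 51.1% (combined) were higher.

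Directions turned with equal totals in the Ctnnb1 comparison for Esrp1 (0.36), Cdh2 (0.046) and Vim (0.0021), and in the combined comparison for Zeb1 (0.26). With a library left out, Snai1 turned in the Ctnnb1 comparison (-0.0090 without wild-type replicate 3, -0.27 without Ctnnb1 replicate 13; range -0.27 to 0.62). In the combined comparison Zeb1 turned (range -0.50 to 0.19) and so did Twist1 (-0.21 to 1.11). In the ADT comparison the ranges that crossed 0 were Cdh2 (-2.02 to 0.37), Zeb2 (-0.72 to 0.52), Snai1 (-0.11 to 2.103) and Twist1 (-0.44 to 1.30); without ADT replicate 1 Twist1 was -0.17, and without ADT replicate 2 Zeb2 was 0.09. The cause was not tested.

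Genes called between ADT and mock were 2, and 5 with a pseudocount of 10, 60 with a mean of at least 50, 48 with equal totals, 54 with equal upper quartiles, 29 with a robust prior, 0 without a trend and 0 with any library left out. No member was called in any of these. Where a library was left out the group may hold 1 sample, assumed to vary like the other group. A replicate block gave 0 genes and 0 members. The numbers are not stated to mark a shared animal. Same-numbered samples correlated at 0.223 and 0.117 in their deviations, over 2 pairs only, and mock 2 with ADT 3 at 0.137. With 2 mock libraries the deviations of one mirror those of the other, so these values cannot decide whether samples were paired. Of depth only a lower bound of 6 Gb per library is given in the labels, so what depth limits cannot be given.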
